A study of Homo sapiens with 6 samples.

Results

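The genes described here are the 4 Argonautes (*AGO1* to *AGO4*), the microRNA processing genes *DROSHA*, *DGCR8* and *DICER1*, and the 3 GW182 genes *TNRC6A*, *TNRC6B* and *TNRC6C*. They were chosen by symbol, 10 of the 26485 gene names in the count table, and all 10 passed the filter on low counts. No threshold on a value was used, but the comparison of knockdown with control cultures was in view when they were chosen. Their differences and calls are therefore a description, and no p value is given for them.

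A microRNA gene is transcribed into a long primary RNA that folds into hairpins. In the nucleus, the Microprocessor, made of the RNase III enzyme DROSHA and its RNA-binding partner DGCR8, cuts the hairpin out, and in the cytoplasm the RNase III enzyme DICER1 cuts it into a short duplex. An Argonaute protein keeps one strand as its guide, and a GW182 protein bound to the Argonaute brings in the deadenylases that shorten the poly(A) tail of the target. Small interfering RNAs (siRNAs) introduced into cells are also loaded into Argonautes, and AGO2 is the human Argonaute known for slicing targets that pair fully with the guide.

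RNA-seq was performed on 6 cultures of HEK293, an established line of human embryonic kidney cells, whose sample titles spell it HEK393. In the knockdown group (n = 3, cultures numbered 1, 4 and 5), the long noncoding RNA *HSALNG0134318* of 22q11.2 was silenced by transient transfection of a Smart Silencer, a mixture of siRNAs and antisense oligonucleotides, with Lipofectamine RNAiMAX. The control group (n = 3) has the genotype WT in the labels and the culture names NC-10, NC-11 and NC-1 for replicates 1, 2 and 3, and what these cultures received is not given in the sources used here. A lone cell line under transient transfection was studied, so the spread between cultures is not a spread between cell sources, and the level of *HSALNG0134318* was not analysed here.

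Counts per culture totalled from 13900965 to 15583535 in knockdown and from 14732648 to 16869948 in control cultures. All 8 HEK293 markers examined, among them *PAX2*, *LHX1* and *NEFL*, had a mean of at least 10 counts. Of 10 markers of other cell types, only the collagen gene *COL1A1* did, and *CD3E* was at 0 in all 6. The summed level of these 10 was 608 to 775 normalized counts in knockdown and 613 to 728 in control cultures. Normalized counts here are raw counts scaled to a common effective library size, and differences are log2 fold changes of knockdown over control with their standard errors. Called means that the p from edgeR's quasi-likelihood test, adjusted by Benjamini-Hochberg over the 14877 genes tested, was under 0.05. RNA from whole cultures was measured, so less RNA per cell cannot be told apart from fewer cells that hold it.

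Short RNAs that lie inside these genes are shown because the proteins made from the same loci take part in cutting such hairpins. The *DGCR8* transcript carries hairpins in its own exons that the Microprocessor is known to cut, and *DICER1* carries one in an intron. The sequences below are mature microRNAs from RefSeq (GRCh38.p14), 5′ to 3′, with the seed, bases 2 to 8, in capitals. They are encoded at chr22:20085797-20085818, chr22:20086072-20086093 and chr22:20086112-20086129 on the plus strand for *DGCR8*, and at chr14:95137961-95137982 and chr14:95137923-95137944 on the minus strand for *DICER1*.
hsa-miR-3618: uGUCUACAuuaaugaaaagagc
hsa-miR-1306-5p: cCACCUCCccugcaaacgucca
hsa-miR-1306-3p: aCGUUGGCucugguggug
hsa-miR-3173-5p: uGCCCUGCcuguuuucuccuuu
hsa-miR-3173-3p: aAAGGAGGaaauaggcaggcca
No seed is shared among them. The rows *MIR3618* and *MIR1306* were at 0 counts in all 6 cultures, which by counting error alone allows up to 3 counts in each. Both lie in exons of *DGCR8* on the same strand, and how reads of overlapping genes were assigned is not given. Their 0 counts therefore do not measure their level. *MIR3173* had 1 count in 1 culture. The libraries were made from polyadenylated RNA, so mature microRNAs were not measured.

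*AGO2*, *TNRC6A* and *DROSHA* were the 3 genes called, the first 2 lower and *DROSHA* higher in the knockdown group. Of all genes tested, 10% were called, 4.64% lower and 5.40% higher. *AGO2* stood at 49.9% of its control level, *TNRC6A* at 75.6% and *DROSHA* at 158.7%. *AGO1*, *DGCR8* and *TNRC6B* had log2 fold changes between 0.05 and 0.12, and *AGO3*, *AGO4*, *DICER1* and *TNRC6C* had values between -0.46 and -0.32 without being called. The median log2 fold change of the 10 genes was -0.33, against -0.02 over all genes tested.

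**Figure D1:**
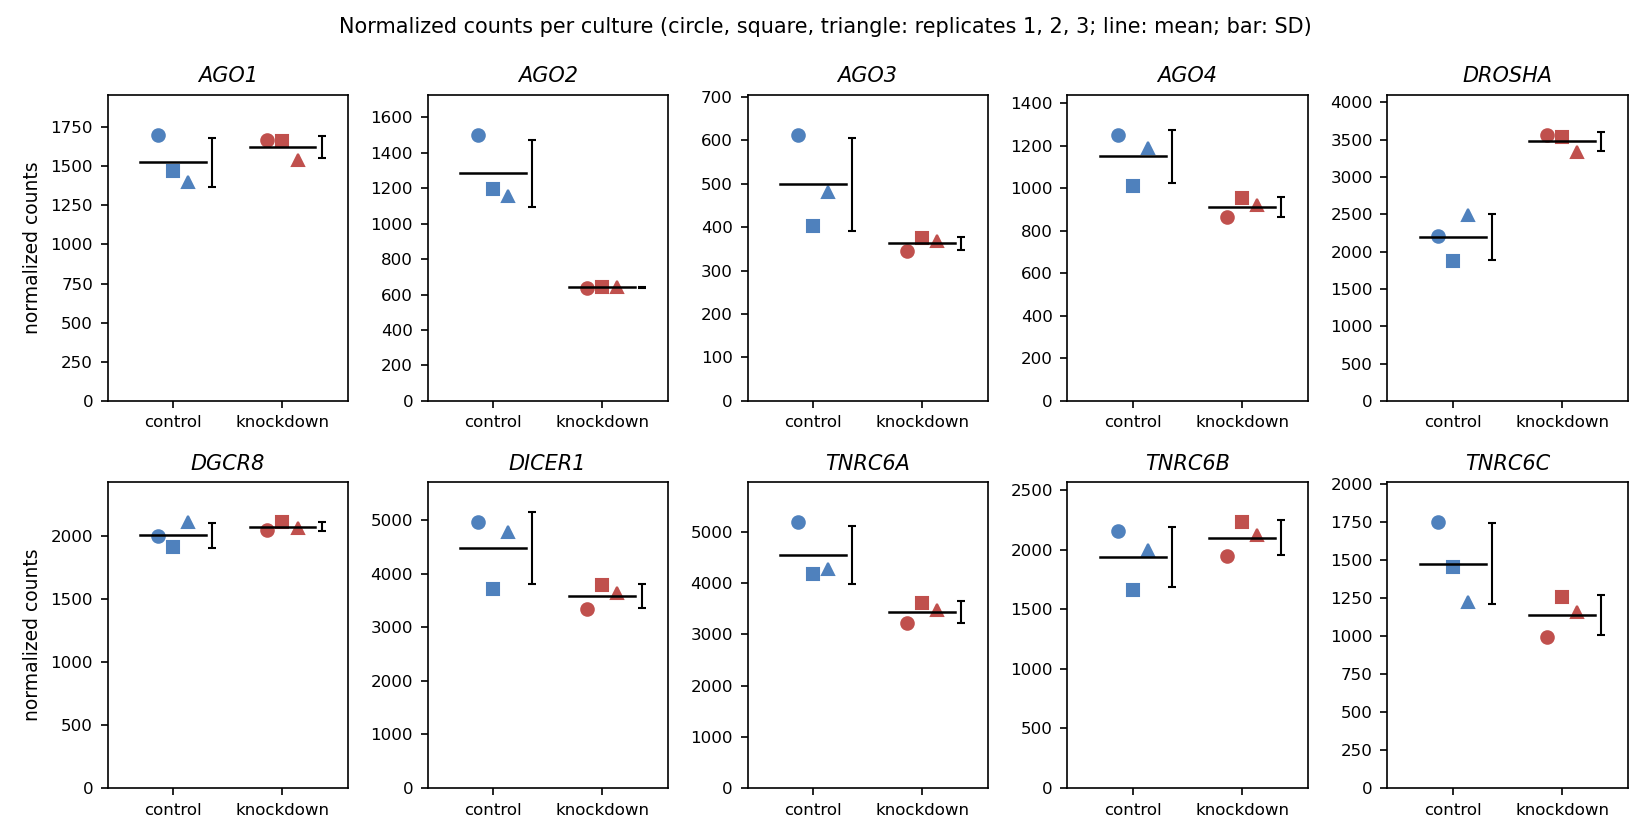
Normalized counts of each gene (y axis, from 0) in the 3 control and 3 knockdown cultures (x axis). Symbols mark replicates 1, 2 and 3, the line is the mean and the bar the SD. The knockdown cultures of *AGO2* lie on top of each other, between 636 and 643, below all 3 control cultures.

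*AGO2* (ENSG00000123908, chromosome 8, 140520156 to 140635633, minus strand of hg38) had 636, 640.5 and 643 normalized counts in knockdown replicates 1, 2 and 3, and 1500.0, 1195 and 1153 in control replicates 1, 2 and 3. All knockdown cultures were lower than every control culture, and control replicate 1 was the highest. Mean levels were 639.9 ± 3.46 in the knockdown and 1283 ± 189 in the control group (SD, n = 3), a log2 fold change of -1.0 (SE 0.11). Among all genes tested, 178 had a log2 fold change as low as this or lower. The 3 knockdown values varied by 0.54%, less than the 4.0% that counting error alone gives at 624 counts, so their SD understates the error of the mean.

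*AGO4*, *AGO1* and *AGO3* lie one after the other on the plus strand of chromosome 1 within 264485 bases, with 11917 bases between *AGO4* and *AGO1* and 185 bases between *AGO1* and *AGO3*. None of these neighbours was called, and the estimates were negative for *AGO3* and *AGO4* only. *AGO1* (35869808 to 35930532) had 1667, 1660 and 1542 normalized counts in the knockdown cultures and 1700, 1471 and 1400.3 in the control cultures. The groups overlapped, and the log2 fold change was 0.09 (SE 0.10, 95% interval -0.12 to 0.30). *AGO3* (35930718 to 36072500) had 345, 375 and 368 normalized counts in the knockdown cultures and 612, 402 and 482 in the control cultures. The groups did not overlap, but control replicate 2 lay close to the knockdown cultures, and the log2 fold change was -0.46 (SE 0.15). *AGO4* (35808016 to 35857890) had 864, 956 and 919 normalized counts in the knockdown cultures and 1250.0, 1009 and 1186 in the control cultures. Here too the groups did not overlap and control replicate 2 was the nearest, and the log2 fold change was -0.33 (SE 0.11).

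The PIWI-clade Argonautes, which act with piRNAs in germ cells, were at or near the limit of detection. *PIWIL3* had 0 counts in all 6 cultures, which allows up to 3 counts in each, *PIWIL1* had at most 2 counts, *PIWIL2* at most 5 and *PIWIL4* from 8 to 16. None of these 4 genes passed the filter on low counts.

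The makeup of the Argonaute transcripts was compared as the share of each gene in the sum of normalized counts per kb of merged exons. *AGO2* made up 13.8%, 13.3% and 13.9% of this sum in the knockdown cultures and 22.9%, 22.5% and 20.5% in the control cultures. *AGO1* made up from 37.7% to 40.7% in the knockdown cultures and from 28.1% to 31.3% in the control cultures. For both genes the shares of the groups did not overlap. A share moves with the sum of the family, and the counts of *AGO1* itself overlapped between groups. *AGO4*, at 41.5% ± 1.40 in knockdown and 42.1% ± 2.51 in control cultures (SD, n = 3), and *AGO3*, at 5.79% ± 0.19 and 6.36% ± 0.67, had overlapping shares. The sum of the 4 genes was 296 ± 7.81 normalized counts per kb in knockdown and 368 ± 40.5 in control cultures. There were 0.382, 0.386 and 0.417 counts of *AGO2* for each count of *AGO1* in the knockdown cultures, and 0.882, 0.813 and 0.824 in the control cultures. The shares were described without a test, since they come from the same comparison, and they move with the gene lengths used.

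**Figure D2:**
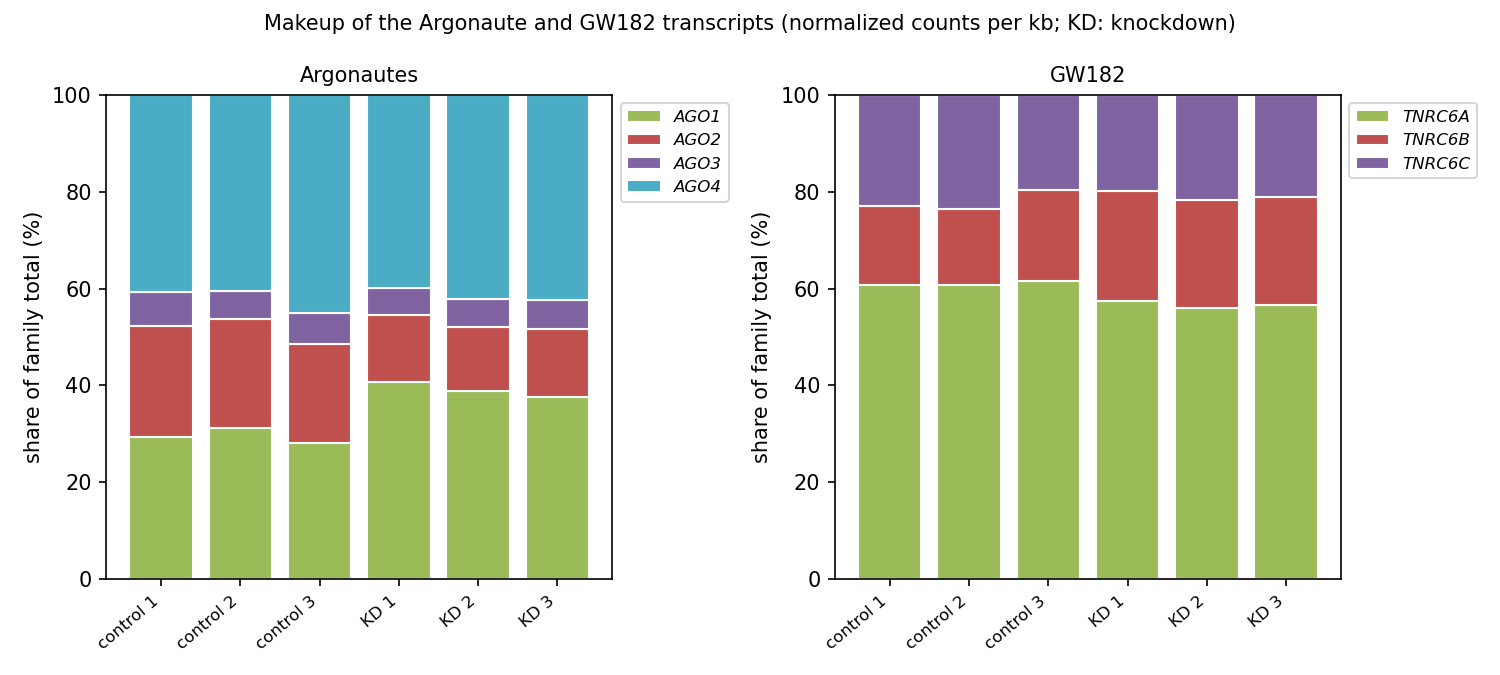
Share of each gene (y axis, percent) in the summed normalized counts per kb of the Argonautes (left) and of the GW182 genes (right) in the 6 cultures (x axis, KD is knockdown). The red part of the left panel, *AGO2*, is shorter in the 3 knockdown cultures, and the green part, *AGO1*, is taller.

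In the nuclear step, *DROSHA* rose and its partner *DGCR8* was not called. *DROSHA* (ENSG00000113360, chromosome 5, 31400494 to 31532196, minus strand) had 3563, 3531 and 3335 normalized counts in the knockdown cultures and 2205, 1876 and 2494 in the control cultures. All knockdown cultures were above all control cultures. The level was 3476 ± 123 in knockdown and 2192 ± 309 in control cultures (SD, n = 3), a log2 fold change of 0.67 (SE 0.11).

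*DGCR8* (ENSG00000128191, chromosome 22, 20080221 to 20111877, plus strand) lies in 22q11.2, as does the silenced lncRNA. It had 2047, 2109 and 2061 normalized counts in the knockdown cultures and 1997, 1907 and 2106 in the control cultures. The groups overlapped, with a log2 fold change of 0.05 (SE 0.08, 95% interval -0.13 to 0.23), the smallest difference and the smallest standard error of the 10 genes. The ratio of *DROSHA* to *DGCR8* counts was 1.74, 1.67 and 1.62 in the knockdown cultures and 1.10, 0.984 and 1.18 in the control cultures, without overlap. *TRMT2A*, which overlaps the end of *DGCR8* on the other strand, had a log2 fold change of -0.02 (SE 0.12).

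*DICER1* (ENSG00000100697, chromosome 14, 95086228 to 95158010, minus strand) had 3338, 3785 and 3633 normalized counts in the knockdown cultures and 4963, 3716 and 4770 in the control cultures. Control replicate 2 fell within the range of the knockdown cultures, while the other control cultures were higher. The log2 fold change was -0.32 (SE 0.11), from 4483 ± 672 in the control group to 3585 ± 227 in the knockdown group. Without control replicate 2 it was -0.44 and passed the threshold, which it did with no other culture left out. The antisense gene *DICER1-AS1*, which overlaps the first part of *DICER1* on the other strand, had 6 to 39 counts and a log2 fold change of 0.56 (SE 0.44, adjusted p of 0.45 from edgeR). Counts of *DROSHA* for each count of *DICER1* were 1.07, 0.933 and 0.918 in the knockdown cultures and 0.444, 0.505 and 0.523 in the control cultures.

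The GW182 proteins carry glycine-tryptophan repeats that bind Argonautes and a part that binds the CCR4-NOT and PAN2-PAN3 deadenylases. *TNRC6A* (ENSG00000090905, chromosome 16, 24610209 to 24827632, plus strand) had 3214, 3621 and 3473 normalized counts in the knockdown cultures and 5196, 4171 and 4269 in the control cultures. The groups did not overlap, and control replicate 1 was the highest. The level fell from 4545 ± 566 to 3436 ± 206 (SD, n = 3), a log2 fold change of -0.40 (SE 0.10). *TNRC6A* was no longer called without knockdown replicate 1 (-0.36), knockdown replicate 2 (-0.44), knockdown replicate 3 (-0.41) or control replicate 1 (-0.30).

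*TNRC6C* (ENSG00000078687, chromosome 17, 77958703 to 78108822, plus strand) had 997, 1261 and 1158 normalized counts in the knockdown cultures and 1753, 1456 and 1225 in the control cultures. Control replicate 3 lay within the knockdown range, and the log2 fold change was -0.38 (SE 0.13). Without control replicate 3 it was -0.49 and passed the threshold, which it did with no other culture left out. *TMC6*, which overlaps the end of *TNRC6C* on the other strand, had a log2 fold change of -0.44 (SE 0.21, adjusted p of 0.19 from edgeR), and *TNRC6C-AS1* had 7 to 21 counts. *TNRC6B* (ENSG00000100354, chromosome 22, 40044817 to 40335808, plus strand) had 1946, 2236 and 2128 normalized counts in the knockdown cultures and 2157, 1659 and 2000.1 in the control cultures. The groups overlapped, with a log2 fold change of 0.12 (SE 0.11, 95% interval -0.12 to 0.36).

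Within the GW182 genes, *TNRC6B* made up from 22.4% to 22.6% of the summed normalized counts per kb in the knockdown cultures and from 15.7% to 18.7% in the control cultures. *TNRC6A* made up from 55.9% to 57.5% in the knockdown cultures and from 60.7% to 61.6% in the control cultures, and neither gene's shares overlapped between groups. The count ratio of *TNRC6A* to *TNRC6B* was 1.65, 1.62 and 1.63 in the knockdown cultures and 2.41, 2.51 and 2.13 in the control cultures. *TNRC6C* had overlapping shares of 20.9% ± 0.92 and 22.1% ± 2.08. The sum of these genes was 468 ± 34.7 normalized counts per kb in knockdown and 574.5 ± 73.4 in control cultures. A share moves with this sum, and the counts of *TNRC6B* itself overlapped between groups.

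**Figure D3:**
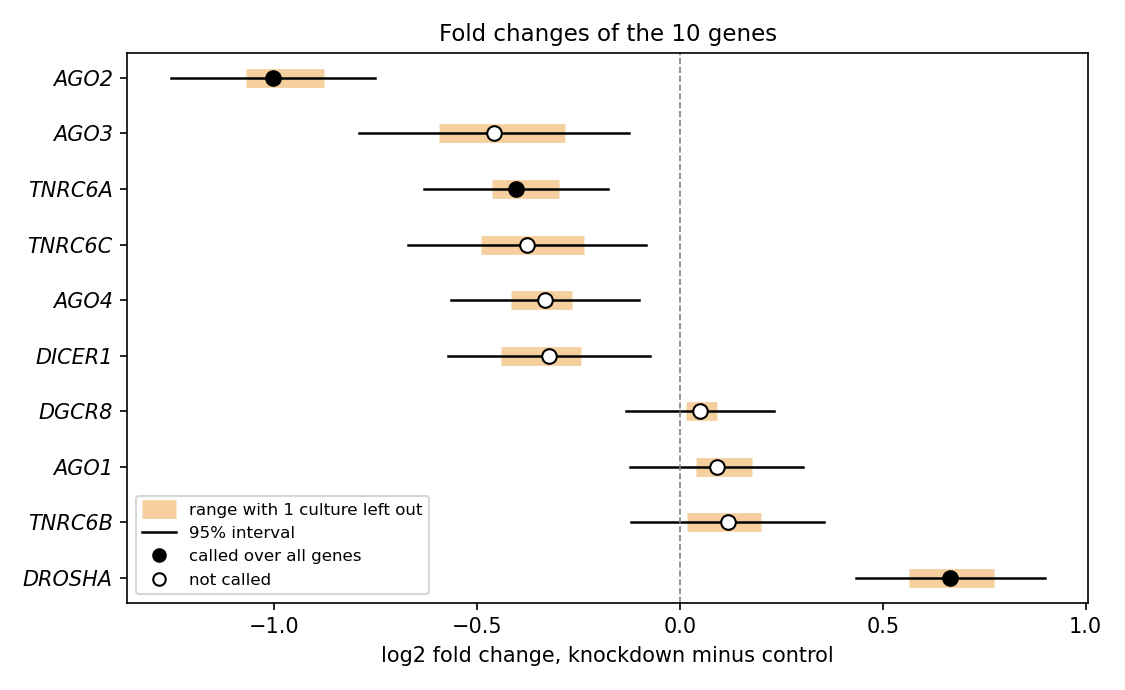
Log2 fold change of knockdown over control (x axis) for the 10 genes (y axis), with the 95% interval of the fit (line), the range of estimates when 1 culture is left out (band) and filled points for called genes. *AGO2* at -1.0 and *DROSHA* at 0.67 lie farthest from 0, and no band crosses 0.

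Of the 10 genes, 5 had no overlap between groups, 4 lower (*AGO2*, *AGO3*, *AGO4* and *TNRC6A*) and *DROSHA* higher. Without overlap were 32.2% of all genes tested, 15.8% lower and 16.4% higher. *AGO2* and *DROSHA* were called in all 15 alternative settings, with log2 fold changes from -1.07 to -0.88 and from 0.57 to 0.77. The number of members called lower depended on the setting, and so did the share of all genes tested that were called lower, given in parentheses. It was 6 when libraries were adjusted for the GC content and length of transcripts (9.48%) and 5 when the replicate number was added to this as a block (7.57%). It was 1 without knockdown replicate 1 (1.67%), 2 (1.63%) or 3 (1.54%) and without control replicate 1 (1.95%), 5 without control replicate 2 (8.21%) and 3 without control replicate 3 (6.57%). It was 3 with DESeq2 (5.75%) and with no filter on low counts (4.01%). It was 2 with limma-voom (4.40%), with at least 10 counts required in every culture (4.72%), with library sizes alone (4.41%), with the size factors of DESeq2 (4.58%) and with the replicate block (4.16%).

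In each of the 10 genes, the coefficient of variation was larger in the control group than in the knockdown group, which was so for 73.2% of all genes tested. It ran from 0.54% for *AGO2* to 11.7% for *TNRC6C* in knockdown and from 4.97% for *DGCR8* to 21.3% for *AGO3* in control cultures. Over all genes tested, the median was 7.82% in knockdown and 13.3% in control cultures. The control culture nearest to the knockdown mean was replicate 1 for *AGO1* and *TNRC6B*. It was replicate 2 for *AGO3*, *AGO4*, *DICER1* and *TNRC6A*, and replicate 3 for *AGO2*, *DROSHA*, *DGCR8* and *TNRC6C*.

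Levels between genes were compared per kb of merged exons. In the control group *TNRC6A* was the highest at 350.5 ± 43.6 normalized counts per kb (SD, n = 3), followed by *DROSHA* at 282 ± 39.7, *DGCR8* at 274 ± 13.6 and *DICER1* at 202 ± 30.3. *AGO4* (155 ± 16.8), *TNRC6C* (127 ± 22.7), *AGO1* (109 ± 11.2), *TNRC6B* (97.0 ± 12.7) and *AGO2* (80.95 ± 11.9) came next, each overlapping with the one before it. *AGO3* was the lowest at 23.6 ± 5.03, below every value of *AGO2*. *TNRC6A* lay above *DROSHA*, and *DGCR8* above *DICER1*, without overlap, while *DROSHA* and *DGCR8* overlapped.

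In the knockdown group *DROSHA* was the highest at 447 ± 15.8 normalized counts per kb, above *DGCR8* at 283 ± 4.44 and *TNRC6A* at 265 ± 15.9, with no overlap between these neighbours. *DICER1* (162 ± 10.3) and *AGO4* (123 ± 6.23) followed. *AGO4*, *AGO1* (116 ± 5.01), *TNRC6B* (105 ± 7.31) and *TNRC6C* (97.9 ± 11.5) each overlapped with their neighbour in the order. *AGO2*, at 40.4 ± 0.22, was below all of these and above *AGO3* at 17.1 ± 0.73. The place of *AGO2*, next to last, was the same in both groups.

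**Figure D4:**
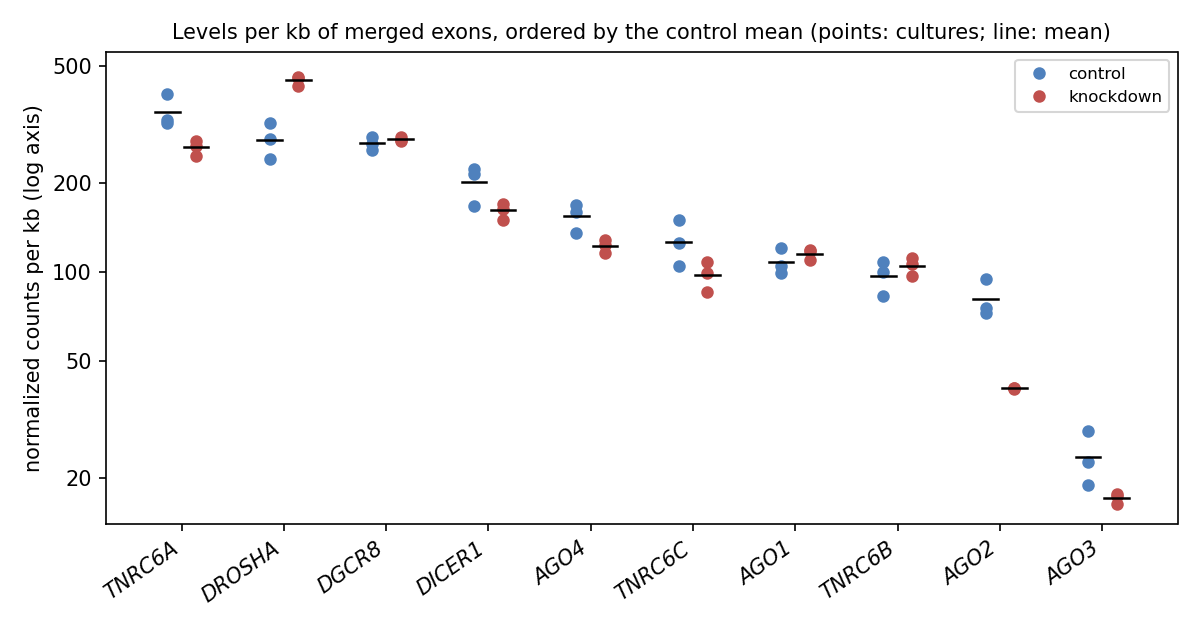
Normalized counts per kb of merged exons (y axis, log scale) in each culture for the 10 genes (x axis), ordered by the control mean. Points are cultures and lines are means. *DROSHA* moves from second place in the control group (282) to first in the knockdown group (447).

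The transcripts of these genes have long 3′ untranslated regions (UTRs), which the choice of genes did not use. In the Ensembl canonical transcripts, 9 of 10 were longer than the median of 1101 bases over 19183 protein-coding genes, the exception being *DROSHA* with 938 bases. The longest were 16755 bases in *AGO3*, 12567 in *TNRC6B*, 11888 in *AGO2* and 10925 in *AGO1*.

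The let-7 family is the subject of a well-known loop in this pathway, in which LIN28 proteins block the making of let-7 and let-7 represses *LIN28B*. The mature let-7a (RefSeq, chr9:94175962-94175983, plus strand) is shown with its seed in capitals, followed by stretches of 3′ UTR in GENCODE release 44 on hg38 that hold CTACCTC, the 7 letters that pair with this seed, in capitals. The stretches lie at chr1:35920678-35920699 in *AGO1*, chr1:36069074-36069095 in *AGO3* and, for *LIN28B*, chr6:105078813-105078834 and chr6:105081240-105081261, all on the plus strand.
hsa-let-7a-5p: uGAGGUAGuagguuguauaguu
AGO1: tctccttattcctcCTACCTCc
AGO3: atacctgtcctcacCTACCTCa
LIN28B, first: cccggttgcaaagtCTACCTCa
LIN28B, second: actgatgatagtaaCTACCTCt
The letters were searched on the transcribed strand only. They were found in 3 of the 10 genes, *AGO1*, *AGO2* and *AGO3*, and in 9.95% of the 19183 3′ UTRs, most of which are shorter than these. *AGO1* and *AGO3* hold 1 copy each, *AGO2* holds 2, which are not shown, and *LIN28B* holds 4. *DICER1* holds none in its 3′ UTR.

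The other genes of the pathway were taken from 7 lists of 100 genes, of which 94 were tested. Of these, 5 were called lower and 4 higher, or 9.57%, against 10% of all genes tested, with a median log2 fold change of -0.04. Over all genes tested, 3996 of 14877 had an unadjusted p under 0.05 from edgeR. Among 16 nuclear cofactors of the Microprocessor, such as the helicases *DDX5* and *DDX17*, edgeR called 0, as did DESeq2 and limma-voom, and 4 had an unadjusted p under 0.05. Among 21 factors of decapping and translational repression the 3 tools again called 0, and 2 had an unadjusted p under 0.05. There *DDX6*, the helicase that links CCR4-NOT to decapping, had a log2 fold change of -0.09 (SE 0.12), and *DCP2*, the decapping enzyme, one of -0.01 (SE 0.12).

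**Figure D5:**
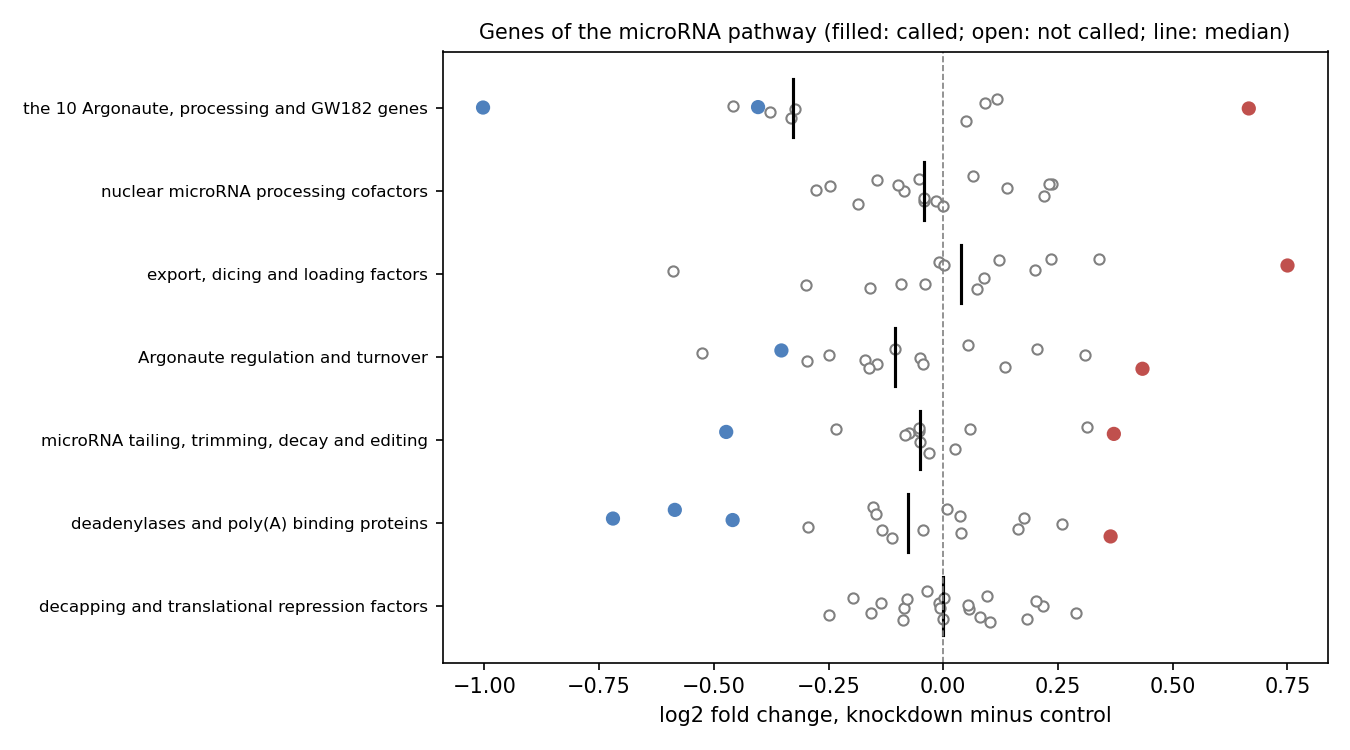
Log2 fold change of knockdown over control (x axis) of each tested gene in the 10 Argonaute, processing and GW182 genes and in 6 lists of the pathway (y axis). Filled points are called genes, blue lower and red higher, open points are not called, and the line is the median. The lists of nuclear cofactors and of decapping factors hold no filled point.

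The largest number of calls was in the deadenylases and poly(A) binding proteins, partners of the GW182 proteins, with 3 of 16 lower and 1 higher. These 4 calls were 25% of the list, against 10% of all genes tested. *CNOT6*, a catalytic subunit of CCR4-NOT, fell to 1697 ± 139 normalized counts from 2546 ± 183 in the control group (SD, n = 3), by 0.59 on the log2 scale (SE 0.10, adjusted p of 0.0036 from edgeR). *TOB1*, an adaptor that binds the complex, fell by 0.72 on the log2 scale (SE 0.13, adjusted p of 0.0076 from edgeR). Both were called in all 15 alternative settings, with adjusted p from 1.9e-05 to 0.028 and from 4.0e-05 to 0.044. *CNOT6L*, the paralog of *CNOT6*, named after its value was seen, fell by 0.46 (SE 0.12, adjusted p of 0.039 from edgeR). *PAN2*, the catalytic subunit of PAN2-PAN3, rose by 0.36 (SE 0.09, adjusted p of 0.022 from edgeR), while *PAN3* had a log2 fold change of 0.18 (SE 0.11) and was not called. *CNOT1*, the scaffold of CCR4-NOT, had one of -0.15 (SE 0.09). The adjusted p of *CNOT6L* over these settings ran from 0.0027 to 0.15 and that of *PAN2* from 0.0076 to 0.11, with calls in 10 of 15 settings each. Both calls were lost without any 1 of the knockdown cultures or without control replicate 1, that of *CNOT6L* also without control replicate 3 and that of *PAN2* also under the replicate block.

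Of 14 factors of export, dicing and loading, 1 was called. *FKBP5*, a co-chaperone of HSP90, the chaperone that helps load Argonautes, rose to 2348 ± 50.7 normalized counts from 1397 ± 358 in the control group, with a log2 fold change of 0.75 (SE 0.15, adjusted p of 0.0097 from edgeR). Its adjusted p over the alternative settings ran from 4.6e-05 to 0.056, the highest being without control replicate 1, where its log2 fold change was 0.71 and the call was lost. *XPO5*, which carries the hairpins out of the nucleus, had a log2 fold change of 0.12 (SE 0.09, adjusted p of 0.39 from edgeR). The DICER1 partners *TARBP2* and *PRKRA* had values of -0.01 (SE 0.13) and -0.30 (SE 0.10, adjusted p of 0.078 from edgeR) and were not called.

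Of 15 tested regulators of the Argonautes, 1 was lower and 1 higher, and they are subunits of the same phosphatase. The complex of *PPP6C*, the catalytic subunit, and *ANKRD52*, a regulatory subunit, is known to remove phosphates from AGO2. *PPP6C* fell by 0.35 on the log2 scale (SE 0.09, adjusted p of 0.026 from edgeR), from 1983 ± 103 to 1553 ± 74.1 normalized counts. *ANKRD52* rose by 0.43 (SE 0.08, adjusted p of 0.0088 from edgeR), from 5531 ± 204 to 7473 ± 313. Over the alternative settings the adjusted p ran from 0.0036 to 0.12 for *PPP6C* and from 0.00026 to 0.058 for *ANKRD52*. Both calls were lost without any 1 of the knockdown cultures, and that of *PPP6C* also without control replicate 1 and under the replicate block. *MOV10*, a helicase that binds Argonautes, had a log2 fold change of -0.14 (SE 0.09) and was not called.

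Of 12 tested genes for tailing, trimming, decay and editing of microRNAs, 1 was lower and 1 higher. *LIN28B* fell to 1945 ± 140 normalized counts from 2701 ± 441 in the control group, with a log2 fold change of -0.47 (SE 0.12, adjusted p of 0.030 from edgeR). *DIS3L2*, the exonuclease that degrades the let-7 precursors tailed after LIN28 binding, rose by 0.37 (SE 0.11, adjusted p of 0.0496 from edgeR). The adjusted p of *LIN28B* ran from 0.00014 to 0.13 over the alternative settings and that of *DIS3L2* from 0.026 to 0.21. Both calls were lost without any 1 of the cultures except control replicate 2, and that of *DIS3L2* also without the filter and under the replicate block.

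The genes most like *AGO2* over the 6 cultures were *TP53INP1*, *PRTG* and *ACBD7*. Likeness was the Euclidean distance between log2 values, scaled to library size and centred on each gene's mean, over 11294 other genes whose mean count reached 100, and the distances were 0.185, 0.205 and 0.226. *TP53INP1* had 517, 549 and 559 normalized counts in the knockdown cultures and 1307, 1105 and 1102 in the control cultures. As in *AGO2*, control replicate 1 was the highest and the knockdown cultures lay close together, which follows from the choice by likeness. The log2 fold changes, likewise brought near that of *AGO2* by the choice, were -1.11 for *TP53INP1*, -1.13 for *PRTG* and -0.95 for *ACBD7*.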

How the data were processed

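RNA-seq libraries of polyadenylated RNA (stranded mRNA kit) from 3 knockdown and 3 control cultures were analysed. The authors deposited counts of reads per gene symbol as whole numbers without normalization. GEO's processing notes name FastQC 0.11.9, Trim Galore 0.6.6, STAR 2.7.9a, featureCounts 2.0.1 and hg38, and the paper names later versions of STAR and Subread and the removal of ribosomal RNA with SortMeRNA. The gene annotation, the strand setting and the handling of reads that map to several places are not given in the sources used here, so reads of overlapping genes and of similar paralogs could be split or lost.

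Groups and replicate numbers came from the sample titles. The filter filterByExpr kept 14877 genes. Library sizes were adjusted by TMM, and the quasi-likelihood test with robust estimates was run in edgeR 4.0.16 under R 4.3.3. The biological coefficient of variation was 12.4%. The cultures are described as biological replicates without further detail, so p values measure the spread between these cultures. For a single gene, 3 against 3 cultures cannot give an exact two-sided permutation p under 0.10. The 95% intervals come from the edgeR fit, while limits from 0 counts cover counting error only.

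The members and the gene lists were chosen with earlier results of these data known. All members are named, with at most 3 called genes by smallest p from each list and genes with a unique role in a list. The 3 genes most like the called member with the largest change and genes that overlap a member are also named. *TNRC6C-AS1* was added by its name, and *CNOT6L* and the microRNA host genes after their values were seen. *LINC01567*, which overlaps *TNRC6A*, had at most 2 counts in any culture. Lengths, positions and UTRs come from GENCODE release 44 on hg38, the build of the files. Of 26485 gene names, 1952 matched no GENCODE name, and 13 had the form of a calendar date, none a member. DESeq2 1.42.0, limma 3.58.1 (voom), other scalings and filters, a loess correction for GC content and length (span 0.3, known for 97.3% of genes) and each culture left out in turn were alternatives. Each fit to all cultures was tested on simulated data, while the fits with a culture left out were not. Figures were drawn with matplotlib 3.10.9 in Python 3.11.15.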

Additional observations from a re-analysis of the deposited data

How the results depend on the processing

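*AGO2* and *DROSHA* kept their direction and their calls in all 15 alternative settings, and no member changed sign in any of them. The correction for GC content and transcript length gave 1411 lower and 1330 higher genes in place of 690 and 804, 6 members and 9 pathway genes lower, and, with the replicate block, 1126 lower genes, 5 members lower and 9 pathway genes lower. With 1 culture left out, all genes called ranged from 233 to 1238 lower and from 289 to 1274 higher, members called lower from 1 to 5, and pathway genes from 2 to 8 lower and from 1 to 9 higher. The causes were not tested. Members called in addition were *AGO3* in 5 settings, *AGO4* and *TNRC6C* in 3 each and *DICER1* in 2.

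The correlations of deviations between same-numbered cultures were -0.199, -0.112 and -0.044, and no culture correlated best with its own number. With 3 cultures in each group, these values cannot show whether the cultures were handled in pairs. With the replicate block there were 619 lower and 714 higher genes, 2 members lower and 1 higher, and 5 pathway genes lower and 2 higher. With the length of the longest transcript in place of merged exons, control levels were 405 normalized counts per kb for *DROSHA*, 427 for *DGCR8*, 353 for *DICER1* and 535 for *TNRC6A*, which exchanged the places of *DROSHA* and *DGCR8* in the control group.

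Signs changed only for 4 genes that are not members and were not called. *TARBP2* ranged from -0.0839 to 0.0751 with 1 culture left out and was 0.0203 with the GC and length correction, 0.0189 with this and the replicate block, and 0.00045 with library sizes alone. *DCP2* ranged from -0.0761 to 0.138 with 1 culture left out and was 0.0709 with the GC and length correction, 0.0772 with this and the block, 0.0016 with library sizes alone, 0.0015 with limma-voom and 0.0013 with the replicate block. *TRMT2A* ranged from -0.116 to 0.0632 and *TNRC6C-AS1* from -0.28 to 0.38 with 1 culture left out. At this depth the standard errors of the members ran from 0.08 for *DGCR8* to 0.15 for *AGO3*.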

Other observations

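Of 37 rows named as microRNA host genes, the long transcripts from which some microRNAs are cut, 14 were tested. Of these, edgeR, DESeq2 and limma-voom each called 0, with 4 at an unadjusted p under 0.05 from edgeR. Over all genes tested, 3996 of 14877 were under 0.05 in the same way, a share close to that of the host genes. The 4 host genes are named here, chosen after their values were seen. *MIR17HG*, the host of the miR-17 to miR-92a cluster, had 84, 91 and 112 counts in the knockdown cultures and 151, 143 and 137 in the control cultures, a log2 fold change of -0.51 (SE 0.19, adjusted p of 0.11 from edgeR). *MIRLET7DHG* had a log2 fold change of -0.66 (SE 0.26, adjusted p of 0.13 from edgeR), and *MIR600HG* one of 0.37 (SE 0.11, adjusted p of 0.055 from edgeR). *MIR210HG*, with 9 to 39 counts, had a log2 fold change of -0.86 (SE 0.38, adjusted p of 0.17 from edgeR). Of 1879 rows of single microRNA genes, 1359 were at 0 counts in all 6 cultures and 44 were tested, of which edgeR called 0, with 3 at an unadjusted p under 0.05, DESeq2 0 and limma-voom 1.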
